A study of Mus musculus with 6 samples.

Results

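The voltage-gated sodium and calcium channels of the neonatal mouse cochlea are described here through the genes that encode their subunits. Members were the protein-coding genes whose symbol is Scn, a number and a or b, or Cacna, Cacnb or Cacng followed by a number, with Cacna1d and Cacnb2 left out. This rule gave 38 genes of the 55769 features in the files, namely 10 sodium channel alpha genes, 4 sodium channel beta genes, 9 calcium channel alpha1 genes, 4 alpha2delta genes, 3 calcium channel beta genes and 8 gamma genes. The rule used names alone and no measured value, but it was set with earlier results of these data known.

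A voltage-gated sodium channel has a single large alpha protein that forms the pore and opens when the membrane depolarises, which carries the upstroke of the action potential, together with small beta proteins that adjust gating and surface density. A voltage-gated calcium channel has an alpha1 protein as its pore, and the high-voltage-activated types also carry a cytoplasmic beta subunit and an extracellular alpha2delta subunit. In the cochlea, spiral ganglion neurons fire with sodium channels, and hair cells release transmitter through a calcium channel whose pore is encoded by Cacna1d. Most genes named Cacng encode proteins known best as partners of AMPA-type glutamate receptors.

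Whole cochleae of mice on postnatal day 3 were compared between 2 genotypes, Plscr5-/- (knockout, 3 libraries) and wild type (3 libraries), and total RNA was sequenced. No strain or further allele is given in the labels, apart from an extraction text that speaks of a Pou4f3(Δ/+) line no library lists. Libraries carry replicate numbers, but whether separate animals stand behind them is left unsaid in the labels, so p-values measure the spread between these libraries, which may be technical. Plscr5 encodes a member of the phospholipid scramblase family, and the comparison asks which transcripts differ when it is disrupted.

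Values are in TPM (transcripts per 1000000), which corrects each gene for its length and fixes the total of every library, so levels of different genes can be set beside each other, but read depth is unknown. Plscr5, the targeted gene, was still present in knockout libraries, at 4.30, 3.69 and 5.01 TPM, and stood at 14.53, 12.42 and 9.27 TPM in wild-type libraries. The groups did not overlap (means 4.33 ± 0.66 and 12.1 ± 2.6 TPM, SD, n = 3 each, limma adjusted p = 0.29). All 10 hair cell markers examined were above a mean of 1 TPM, and their summed level ran from 509 to 601 TPM over the 6 libraries. Within that sum the markers moved in different directions. Calb2 was at 131 TPM in wild type replicate 3 and at 204 to 251 TPM elsewhere. Of the 10 markers, 2 (Calb2 and Slc17a8) were lowest in that library and 3 (Otof, Lhx3 and Gfi1) were highest there. A single library stood apart in nerve-related genes. The summed level of 14 neuron markers was 226 TPM in wild type replicate 3, against 648 and 832 TPM in the other wild-type libraries and 769 to 1035 TPM in the knockout. The summed level of 11 Schwann cell markers was 581 TPM in wild type replicate 3, against 1376 to 2290 TPM in the other 5 libraries. In whole tissue, fewer cells of a type and less RNA per cell cannot be told apart.

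**Figure D1:**
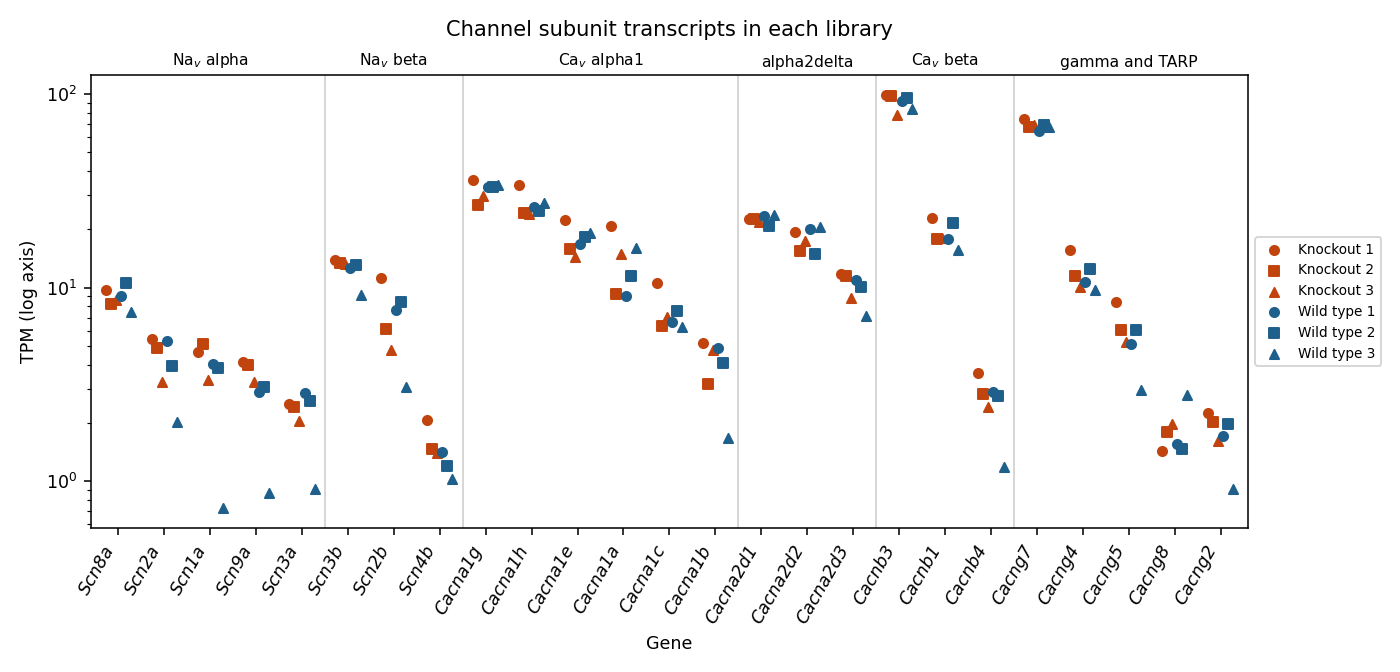
Level of subunit genes with a mean of at least 1 TPM, in TPM on a log axis, with a point for each of the 6 libraries (knockout in red, wild type in blue, marker shape for the replicate number) and genes grouped by subunit class. Cacnb3 and Cacng7 lie highest, and wild type replicate 3 (blue triangles) lies lowest for every sodium channel gene shown.

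No channel subunit gene differed by genotype in a way that passed the test. A gene was tested when it reached 1 TPM in at least 3 libraries, which 28 of the 38 members did, and each fold change is the knockout mean less the wild-type mean of log2(TPM + 1), a scale that understates the change of low genes. With limma over all 17097 tested features and Benjamini-Hochberg adjustment, 0 members passed an adjusted p of 0.05 in either direction, where 2 features or 0.0117% did overall. Adjusted p values of the members ran from 0.989 to 0.998. At an unadjusted limma p under 0.05 the count was also 0, against 4.0% of all tested features. The log2 fold changes of the 28 members ran from -0.12 to 0.63. Of these, 21 were above 0 and 7 below, where 46.6% of all tested features were above 0, and the median was 0.17 beside -0.01 for all tested features. The 95% confidence interval lay within 2-fold in both directions for 22 of the 28, beside 91.5% of all tested features, and Scn1a, Scn9a, Scn2b, Cacna1b and Cacng5 were among the 6 exceptions.

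The size of the median depended on single libraries. Without wild type replicate 3 it was 0.03, with 16 members above 0 and 12 below, and without knockout replicate 1 it was 0.01, with 15 above and 13 below. With the neuron marker score as a covariate it was -0.06, with 10 above and 18 below. The neuron markers themselves leaned towards the knockout, and 0 of them passed. All 14 had log2 fold changes above 0, where 46.6% of all tested features did. Their median was 0.83, and 0.30 without wild type replicate 3. The score and genotype thus overlap in part, and estimates with this covariate do not separate them. The groups failed to overlap at 2 members, Scn9a and Scn3b, both higher in the knockout, where 4.6% of all tested features did so on that side. On the lower side the count was 0, beside 4.74%, and 9.33% of all tested features lay apart in either direction.

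**Figure D2:**
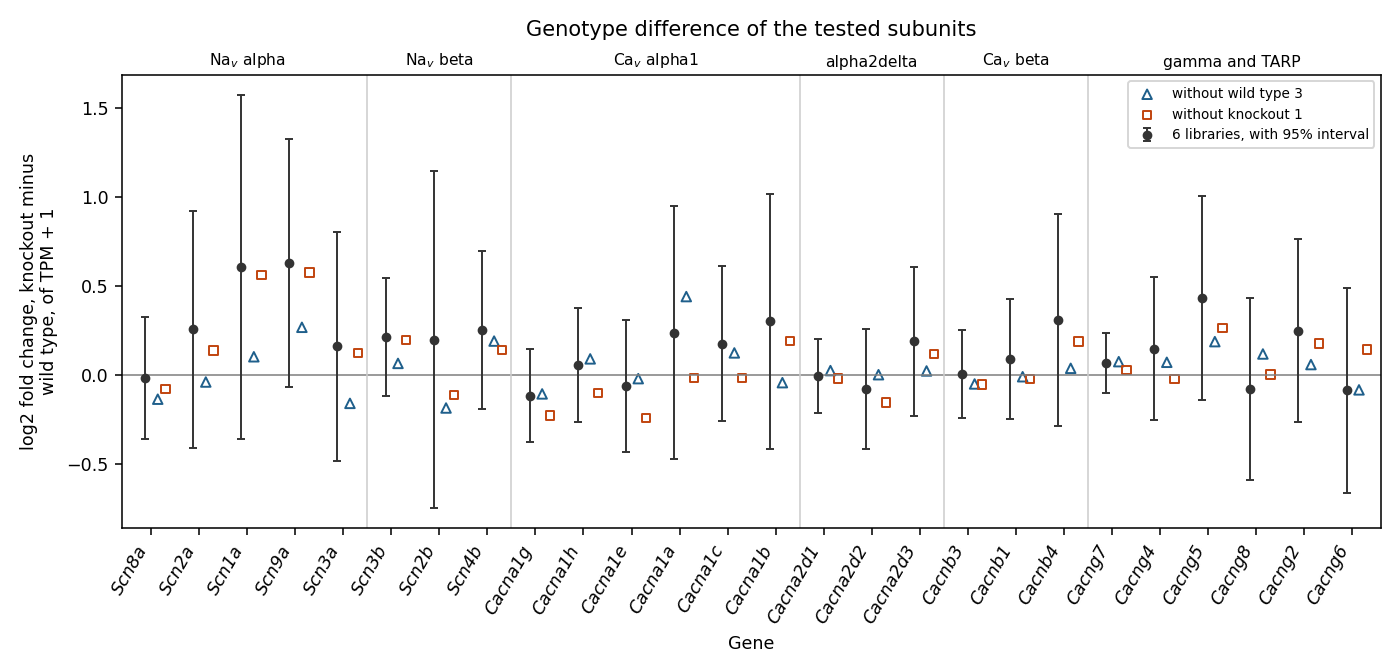
Log2 fold change (knockout minus wild type, TPM + 1) of 26 of the 28 tested subunit genes, with filled points for all 6 libraries and bars for the 95% confidence interval of the limma fit. Open triangles give the estimate without wild type replicate 3 and open squares that without knockout replicate 1. Every interval shown includes 0, and the widest belong to Scn1a and Scn2b.

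The sodium channel alpha genes fall into types that the pufferfish poison tetrodotoxin blocks at low dose and types that resist it. The difference is known to lie in a single residue of the pore loop of the first channel domain, where the sensitive types carry an aromatic residue. The coding stretch around that residue is shown for 4 sensitive types above a mean of 1 TPM and for the resistant types Scn10a and Scn11a, since the sensitive types hold most of the measured transcripts below. Sequences are from GENCODE M21 transcripts (build GRCm38), read 5′ to 3′ on the coding strand, and the capitals mark the codon of that residue.
Scn8a: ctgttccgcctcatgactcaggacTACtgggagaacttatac
Scn2a: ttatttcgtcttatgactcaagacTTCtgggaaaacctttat
Scn9a: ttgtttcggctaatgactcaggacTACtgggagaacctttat
Scn3a: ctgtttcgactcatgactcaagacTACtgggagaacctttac
Scn10a: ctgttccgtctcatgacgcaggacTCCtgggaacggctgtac
Scn11a: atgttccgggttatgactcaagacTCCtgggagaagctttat
Each stretch of 42 bases lies within exon 9 of the transcript read. The Scn8a stretch is at chr15:100971614-100971655 on the plus strand and that of Scn2a at chr2:65688412-65688453 on the plus strand. Scn9a (chr2:66548986-66549027) and Scn3a (chr2:65521798-65521839) lie on the minus strand of the same chromosome as Scn2a. Scn10a (chr9:119666372-119666413) and Scn11a (chr9:119805665-119805706) lie on the minus strand of chromosome 9. Scn7a, whose product is known as a sodium-level sensor and not as an ordinary voltage-gated channel, had no match to the pore loop pattern in the 1 transcript searched.

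The sensitive types made up nearly all sodium channel alpha transcripts in every library. With Scn4a counted among them, their share of the summed alpha TPM was 90.2%, 91.8% and 92.3% in the knockout and 91.4%, 92.2% and 88.1% in the wild type. Scn8a (ENSMUSG00000023033), the main sodium channel of mature nodes of Ranvier, was the most abundant alpha gene. It stood at 9.67, 8.22 and 8.66 TPM in knockout libraries and 9.09, 10.6 and 7.47 TPM in wild-type ones, and the groups overlapped fully (log2 fold change -0.02, 95% confidence interval -0.36 to 0.32).

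Scn9a (ENSMUSG00000075316), a sodium channel best known from sensory and sympathetic neurons, had the smallest unadjusted p of all members. It stood at 4.15, 3.98 and 3.26 TPM in knockout libraries and 2.89, 3.06 and 0.87 TPM in wild-type ones. All knockout values were above all wild-type values, with knockout replicate 3 and wild type replicate 2 only just apart and wild type replicate 3 far below the rest. The log2 fold change was 0.63 (SE 0.30, 95% confidence interval -0.07 to 1.32, limma adjusted p = 0.989). Dropping wild type replicate 3 took it to 0.27, and the neuron marker score as a covariate took it to 0.08.

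Scn1a (ENSMUSG00000064329), a neuronal channel known for its role in fast-spiking cells, stood at 4.65, 5.11 and 3.33 TPM in knockout libraries and 4.04, 3.86 and 0.73 TPM in wild-type ones. Wild type replicate 3 again lay far below the other 5 libraries, which overlapped between genotypes. Its log2 fold change was 0.61 (SE 0.41, limma adjusted p = 0.989), and 0.10 once that library was dropped. Scn2a, a channel of axon initial segments early in development, stood at 5.41, 4.88 and 3.26 TPM in knockout libraries and 5.32, 3.95 and 2.02 TPM in wild-type ones. Scn3a, best known from the developing nervous system, stood at 2.5, 2.43 and 2.06 TPM and at 2.84, 2.60 and 0.91 TPM. In both genes the groups overlapped and wild type replicate 3 was lowest. Their log2 fold changes of 0.26 and 0.16 were -0.04 and -0.16 without that library.

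A further 4 alpha genes did not reach the level needed for a test. Scn4a, the skeletal muscle channel, reached at most 1.17 TPM, Scn11a 0.83 TPM, Scn7a 0.33 TPM and Scn10a 0.13 TPM. Scn10a and Scn11a are known from pain-sensing neurons, and Scn10a was listed at 0 in 1 library.

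The make-up of the alpha pool varied with the library. Scn8a held 32.3%, 29.4% and 36.8% of the summed alpha TPM in knockout libraries and 33.0%, 39.3% and 52.2% in the wild type, the highest share being that of wild type replicate 3. Scn1a held 14.1% to 18.3% in 5 libraries and 5.1% in wild type replicate 3. Scn9a held 13.9%, 14.2% and 13.8% in the knockout and 10.5%, 11.3% and 6.1% in the wild type. The Scn9a shares thus did not overlap between genotypes, as its levels did not, and shares of a pool were not tested. The summed alpha level itself was 30.0, 28.0 and 23.55 TPM in knockout libraries and 27.5, 27.0 and 14.3 TPM in wild-type ones. Leaving out wild type replicate 3 raised the wild-type mean of that sum from 22.9 to 27.3 TPM, beside 27.2 TPM in the knockout.

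**Figure D3:**
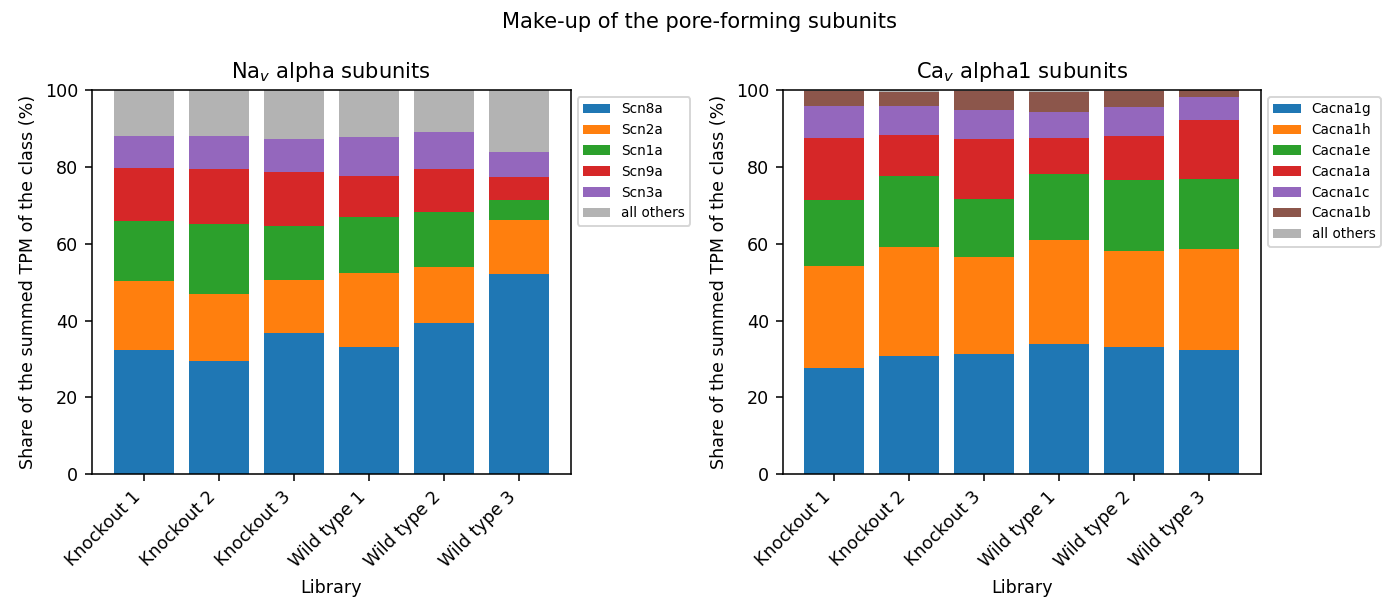
Share of each pore-forming gene in the summed TPM of its class, in percent, for the 6 libraries, with sodium channel alpha genes on the left and the calcium channel alpha1 members on the right. Scn8a takes 52.2% of the sodium pool in wild type replicate 3 and 29.4% to 39.3% elsewhere, whereas Cacna1g takes 27.7% to 34.0% and Cacna1h 25.0% to 28.3% of the calcium pool.

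The sodium channel beta genes Scn2b, Scn3b and Scn4b shared a pattern across libraries, with knockout replicate 1 highest and wild type replicate 3 lowest for each. Scn2b, whose product is tied to the alpha subunit by a disulphide bond, stood at 11.2, 6.10 and 4.75 TPM in knockout libraries and 7.62, 8.47 and 3.06 TPM in wild-type ones. The Scn2b groups overlapped widely, and its estimate of 0.20 was -0.19 without wild type replicate 3 and -0.12 without knockout replicate 1.

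Scn3b, whose product binds alpha subunits without a covalent bond, varied less than Scn2b. It stood at 13.8, 13.3 and 13.3 TPM in knockout libraries and 12.65, 13.1 and 9.18 TPM in wild-type ones, so that the groups did not overlap but 5 of the libraries lay close together. Its log2 fold change was 0.21 (SE 0.14, limma adjusted p = 0.989), and 0.06 once wild type replicate 3 was dropped. Scn4b, a disulphide-linked relative of Scn2b, was low, at 2.07, 1.47 and 1.40 TPM in knockout libraries and 1.42, 1.2 and 1.03 TPM in wild-type ones, with overlapping groups.

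Among the calcium channel alpha1 genes, the high-voltage-activated types carry in the linker between their first and second domains a conserved segment, the alpha interaction domain, that docks the beta subunit. The low-voltage-activated T-types lack it. The coding stretch of that segment is shown for the 4 high-voltage-activated members that were tested, since their transcripts stood beside a large pool of beta transcripts. The pattern searched was QQ, any residue, E, any pair, L, any residue, GY, any pair, W. Capitals mark the codons of the fixed residues, in GENCODE M21 transcripts (build GRCm38) read 5′ to 3′ on the coding strand.
Cacna1a: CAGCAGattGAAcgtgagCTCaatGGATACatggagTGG
Cacna1b: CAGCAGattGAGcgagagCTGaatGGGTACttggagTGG
Cacna1c: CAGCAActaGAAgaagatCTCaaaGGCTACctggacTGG
Cacna1e: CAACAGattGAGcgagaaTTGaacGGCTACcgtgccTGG
These 39 bases lie in exon 8 of Cacna1a (chr8:84536125-84536163, plus strand), Cacna1b (chr2:24719954-24719992, minus strand) and Cacna1e (chr1:154493315-154493353, minus strand), and in exon 9 of Cacna1c (chr6:118734921-118734959, minus strand). Cacna1f and Cacna1s also held the pattern. It was not found in the 11 Cacna1g, 5 Cacna1h and 4 Cacna1i transcripts searched.

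T-type genes, whose channels open at small depolarisations, supplied more than the high-voltage-activated members in every library. This order rests on the member rule, which leaves out Cacna1d, a high-voltage-activated gene at 26.3 to 32.3 TPM. With Cacna1d counted, the order was reversed in every library. Without it, the T-type share of the summed alpha1 TPM was 54.3%, 59.4% and 56.8% in the knockout and 61.0%, 58.3% and 58.6% in the wild type. Cacna1g (ENSMUSG00000020866) stood at 35.7, 26.5 and 29.8 TPM in knockout libraries and 32.9, 32.9 and 33.6 TPM in wild-type ones. The wild-type values were close together and the knockout values spread around them (log2 fold change -0.12, 95% confidence interval -0.38 to 0.14). Its estimate ran from -0.23 without knockout replicate 1 to -0.021 without knockout replicate 2. Cacna1h stood at 34.0, 24.3 and 24.1 TPM in knockout libraries and 26.1, 24.8 and 27.4 TPM in wild-type ones, with knockout replicate 1 alone above the rest. Cacna1i, the third T-type gene, reached at most 0.20 TPM.

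Cacna1e, the pore of R-type channels, was the most abundant high-voltage-activated member, at 22.4, 15.8 and 14.3 TPM in knockout libraries and 16.8, 18.2 and 19.2 TPM in wild-type ones. Its groups overlapped, with an estimate of -0.06 (95% confidence interval -0.44 to 0.31). Cacna1a, the pore of P/Q-type channels of presynaptic endings, was the most variable of the well-expressed calcium channel genes, at 20.7, 9.21 and 14.8 TPM in knockout libraries and 9.05, 11.5 and 16.05 TPM in wild-type ones. Its high values were in knockout replicate 1 and wild type replicate 3, libraries that lay at opposite ends of the neuron markers. The Cacna1a estimate of 0.24 became 0.44 when wild type replicate 3 was dropped and -0.02 when knockout replicate 1 was.

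Cacna1b, the pore of presynaptic N-type channels, stood at 5.19, 3.19 and 4.78 TPM in knockout libraries and 4.89, 4.10 and 1.67 TPM in wild-type ones. Unlike Cacna1a, it was lowest in wild type replicate 3, and its estimate of 0.30 was -0.05 without that library. Cacna1c, an L-type channel of heart, smooth muscle and neurons, stood at 10.55, 6.33 and 7.06 TPM in knockout libraries and 6.65, 7.55 and 6.25 TPM in wild-type ones, with knockout replicate 1 alone high. Knockout replicate 1 held the highest value of all 6 tested alpha1 members, where 26.1% of all tested features were highest in that library. Cacna1f, the L-type channel of the retina, reached at most 0.48 TPM and was listed at 0 in 2 libraries.

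Cacna1d (ENSMUSG00000015968), the hair cell pore that the rule leaves out, gives the scale of these values. It stood at 32.3, 26.3 and 26.9 TPM in knockout libraries and 30.7, 27.7 and 29.6 TPM in wild-type ones, with overlapping groups and a log2 fold change of -0.04 (limma adjusted p = 0.993). Its level was thus close to those of Cacna1g and Cacna1h. Cacnb2, the beta subunit known to serve that channel in inner hair cells, stood at 12.4, 15.2 and 14.3 TPM in knockout libraries and 11.9, 13.8 and 11.4 TPM in wild-type ones (log2 fold change 0.16, limma adjusted p = 0.989).

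The alpha2delta genes, which raise the number of channels at the surface and whose Cacna2d1 and Cacna2d2 products bind gabapentin, were represented by 3 tested members. Cacna2d1 stood at 22.7, 22.5 and 21.8 TPM in knockout libraries and 23.3, 20.7 and 23.6 TPM in wild-type ones (log2 fold change -0.01, 95% confidence interval -0.22 to 0.20). Cacna2d2 stood at 19.4, 15.4 and 17.3 TPM and at 20.1, 14.9 and 20.5 TPM, with overlapping groups (-0.08, interval -0.42 to 0.26). Both were highest in wild type replicate 3. Cacna2d3 stood at 11.8, 11.5 and 8.79 TPM in knockout libraries and 10.9, 10.02 and 7.10 TPM in wild-type ones, and was lowest in that same library. Cacna2d4, known from the retina, exceeded 1 TPM only in knockout replicate 1 (2.01 TPM) and wild type replicate 1 (1.37 TPM), and was not tested.

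Cacnb3 (ENSMUSG00000003352), a cytoplasmic beta subunit of neuronal channels, had the highest mean level of all members. It stood at 98.2, 97.0 and 77.5 TPM in knockout libraries and 92.1, 95.4 and 83.4 TPM in wild-type ones, and the group means were 90.9 ± 11.6 and 90.3 ± 6.2 TPM (SD, n = 3 each). The log2 fold change was 0.00 (95% confidence interval -0.24 to 0.25). Cacnb3 supplied 78.8% to 83.2% of the summed TPM of the 3 beta members in every library. This share rests on the member rule, which leaves out Cacnb2, at 11.4 to 15.2 TPM, and is lower with that gene counted. Cacnb1, known as the skeletal muscle beta subunit, stood at 22.8, 17.8 and 17.9 TPM in knockout libraries and 17.8, 21.5 and 15.7 TPM in wild-type ones. Cacnb4, a beta subunit of central neurons, was low, at 3.62, 2.81 and 2.41 TPM in knockout libraries and 2.88, 2.76 and 1.18 TPM in wild-type ones. The groups overlapped in both, and wild type replicate 3 was lowest in both.

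Cacng7 (ENSMUSG00000069806) had the second highest mean level of all members and, with Cacnb3, made up 37.8% of the summed mean TPM of the 38 genes. It belongs to the TARPs, transmembrane proteins that regulate AMPA receptor traffic and gating. It stood at 74.3, 67.3 and 69.1 TPM in knockout libraries and 64.35, 69.1 and 67.6 TPM in wild-type ones, and its interval was the narrowest among members (log2 fold change 0.07, 95% confidence interval -0.10 to 0.24). Cacng4, another TARP, stood at 15.7, 11.5 and 10.02 TPM in knockout libraries and 10.7, 12.5 and 9.70 TPM in wild-type ones, with overlapping groups.

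Cacng5, a TARP of the same subtype as Cacng7, had the second smallest unadjusted p of the members. It stood at 8.38, 6.07 and 5.25 TPM in knockout libraries and 5.12, 6.02 and 2.95 TPM in wild-type ones. Knockout replicate 1 was alone at the top, wild type replicate 3 alone at the bottom, and the other 4 libraries overlapped. The log2 fold change was 0.43 (SE 0.25, limma adjusted p = 0.989). Dropping wild type replicate 3 took it to 0.19, and the neuron marker score as a covariate took it to 0.02. Cacng2, the TARP known as stargazin, stood at 2.26, 2.02 and 1.61 TPM in knockout libraries and 1.71, 1.97 and 0.91 TPM in wild-type ones. Cacng8 stood at 1.43, 1.79 and 1.97 TPM and at 1.55, 1.47 and 2.78 TPM, and was the only tested TARP that was highest in wild type replicate 3. Cacng3 reached at most 0.15 TPM.

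The AMPA receptor genes that TARPs serve were read beside them. Gria2, the subunit that makes the receptor impermeable to calcium, stood at 3.56, 4.20 and 2.51 TPM in knockout libraries and 2.80, 3.74 and 0.99 TPM in wild-type ones. Gria3 stood at 21.6, 19.3 and 21.7 TPM in knockout libraries and 19.9, 19.5 and 16.9 TPM in wild-type ones, and Gria4 at 13.1, 14.4 and 11.6 TPM and at 11.8, 11.7 and 7.02 TPM. Of the 6 genes of this list, which also holds Gria1, Cnih2 and Cnih3, all had estimates above 0, where 46.6% of all tested features did. Their median was 0.16 over the 6 libraries, and 0 passed. Without wild type replicate 3 the estimate of Gria2 fell from 0.41 to 0.04. Those of Gria3 and Gria4 fell from 0.15 to 0.08 and from 0.36 to 0.14. Those of Gria1 and Cnih2 rose from 0.17 to 0.22 and from 0.11 to 0.16, and Cnih3 was not tested in that setting.

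Some members known from skeletal muscle were low, which did not hold for Cacnb1. Cacna1s, the muscle alpha1 gene, reached at most 0.16 TPM and Cacng1, the muscle gamma gene, at most 0.34 TPM, and each was listed at 0 in 3 libraries. Cacng6, a relative of Cacng1, stood at 0.32, 1.00 and 1.27 TPM in knockout libraries and 1.03, 0.83 and 0.94 TPM in wild-type ones, and passed the level needed for a test with exactly 3 libraries at 1 TPM or more. The summed level of 12 skeletal muscle markers was 7.6 to 12.4 TPM, and the creatine kinase gene Ckm was listed at 0 in 3 libraries. No groups were apart in these genes.

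**Figure D4:**
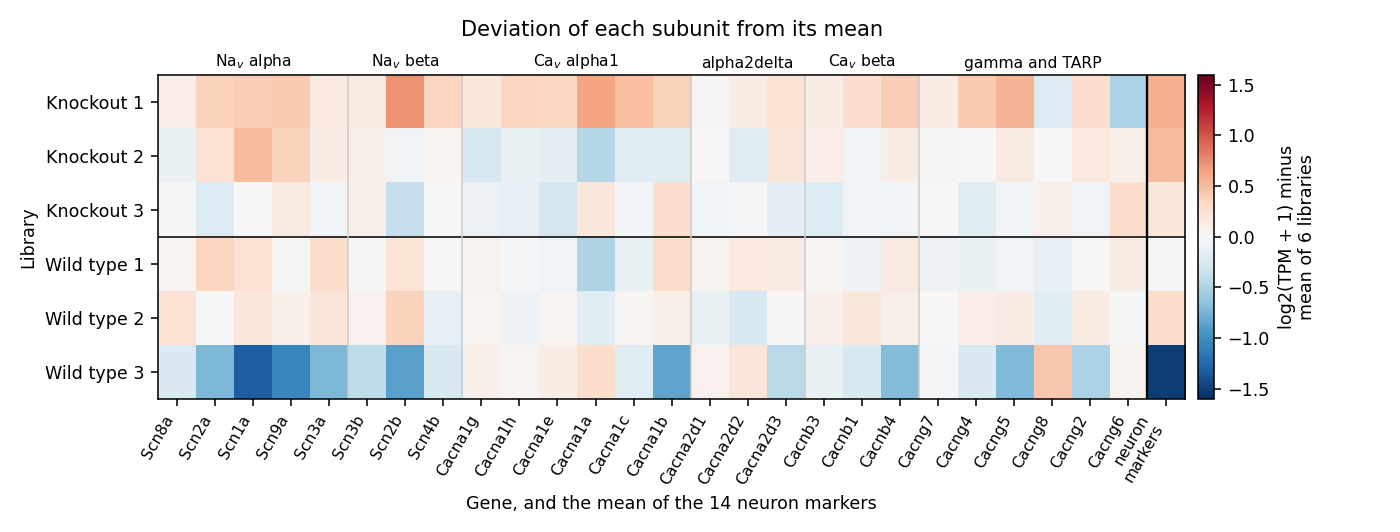
Deviation of log2(TPM + 1) from the mean of the 6 libraries for 26 of the 28 tested subunit genes (columns) in each library (rows), with the mean of 14 neuron markers in the last column. The blue cells of wild type replicate 3 run through the sodium channel genes and the neuron markers, but not through Cacna1g, Cacna1h, Cacna1e, Cacna1a, Cacna2d1, Cacna2d2 or Cacng7.

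The same libraries stood at the ends of the range in most members. Wild type replicate 3 held the lowest value of 18 of the 28 tested members, or 64.3%, where 20.9% of all tested features were lowest there. All 10 tested sodium channel members were among them, against 8 of 18 calcium channel members. In 11 members this library lay at least 0.5 on the log2 scale below the mean of the other 5, among them Scn1a, Scn9a, Scn2b, Cacna1b, Scn2a, Scn3a, Cacng5, Cacnb4, Cacng2 and Cacna2d3. That is 39.3% of the tested members, beside 7.18% of all tested features. All 14 neuron markers and 8 of 11 Schwann cell markers met the same criterion. The part of the neuron and Schwann cell markers in these values was not tested beyond the covariate and the estimates without that library. At the other end, knockout replicate 1 held the highest value of 21 members, or 75.0%, where 26.1% of all tested features were highest there. That library also held the highest summed neuron markers, at 1035 TPM, and the highest summed Schwann cell markers, at 2290 TPM, and their part in its high values was not tested.

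Some members did not share the low level of the neuron markers in wild type replicate 3. In Cacna1g, Cacna1h, Cacna1e, Cacng7 and Cacna2d1, wild type replicate 3 differed from the mean of the other 5 libraries by 0.09, 0.05, 0.14, -0.03 and 0.08 on the log2 scale. In the low genes Cacng8 and Cacng6 the differences were 0.52 and 0.06. In Scn1a and Scn9a the same differences were -1.58 and -1.25. Scn8a, although a neuronal channel, differed by only -0.27, and Cacnb3 by -0.14. At the other end, Cacna1g, Cacna1h, Cacna1e and Cacng7 were highest in knockout replicate 1, as were the summed neuron markers. Cacna2d1, Cacng8 and Cacng6 were not highest in that library.

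Genes whose products bind or regulate these channels were summarised from lists. Of 14 sodium channel partners 9 had estimates above 0 and 5 below, with a median of 0.13, and 0 passed. Dropping wild type replicate 3 took that median to 0.02, and the neuron marker score took it to -0.12. Nrcam, a cell adhesion molecule of nodes of Ranvier, had the smallest p of this list. It stood at 48.0, 44.8 and 45.6 TPM in knockout libraries and 60.9, 54.6 and 60.5 TPM in wild-type ones, with no overlap (log2 fold change -0.34, SE 0.08, limma adjusted p = 0.989). Without wild type replicate 3 the estimate for Nrcam was -0.32. Ank2, an ankyrin that anchors membrane proteins, had an estimate of 0.22 and Cntn2, an axonal adhesion molecule, one of 0.57. Leaving out that library took them to 0.10 and 0.21.

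Of 20 tested calcium channel partners 13 had estimates above 0 and 7 below, with a median of 0.18 that was 0.09 without wild type replicate 3, and 0 passed. Jph1, a junctophilin that holds the surface membrane near the endoplasmic reticulum, stood at 10.8, 10.1 and 11.65 TPM in knockout libraries and 12.6, 12.5 and 13.1 TPM in wild-type ones, with no overlap (log2 fold change -0.21, limma adjusted p = 0.989). Cabp1 and Cabp2 encode calcium-binding proteins that modulate calcium channels, and their estimates were 0.97 and -0.24, or 0.44 and -0.27 when wild type replicate 3 was dropped. Cabp1 was at 2.17 TPM in wild type replicate 3 and at 7.32 to 15.35 TPM elsewhere. The sodium leak channel Nalcn and its partners Unc79, Unc80 and Fam155a, a complex that sets resting excitability, had estimates of -0.06, 0.10, 0.23 and 0.41, and 0 passed. Leaving out wild type replicate 3 took these to -0.09, 0.0065, 0.12 and 0.27.

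Position on the chromosomes was read from GENCODE M21. Scn1a, Scn2a, Scn3a, Scn7a and Scn9a lie on chromosome 2 together with Cacna1b and Cacnb4. Chromosome 9, which carries Plscr5, holds 7 members, of which 5 were tested. Their log2 fold changes included 0.25 for Scn4b, 0.21 for Scn3b, 0.20 for Scn2b and -0.08 for Cacna2d2. Without wild type replicate 3 these were 0.19, 0.06, -0.19 and -0.0002. None of the 5 passed.

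Promoters from RefSeq (GRCm38.p6, from 250 bases before to 50 after the start) matched 28 of the 38 members, with 37 starts in all. Because several neuronal channel genes are known targets of the repressor REST, 2 portions of its binding element were searched on both strands. The letters GGACAGC were in 2 of 37 member promoters (5.41%), those of Cacnb1 and Cacng6, and in 6.56% of 32851 promoters overall. The letters TTCAGCAC were in 0 member promoters and in 1.17% of all promoters. At that rate a set of 37 promoters may well lack them, and sequence outside this window was not searched.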

How the data were processed

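Total RNA of cochleae was sequenced in 6 libraries, 3 per genotype, grouped by the labels. The authors deposited TPM values, a unit read from the values themselves: each library sums to 1000000 and values carry 2 decimals. Which aligner and quantifier they ran is not given in the sources used here. DESeq2 and mm8 stand in the submitters' processing notes with no role. TPM keeps no read depth, so no counting interval is given. Symbols and biotypes came from GENCODE M21 (GRCm38), which named 52083 of 55416 Ensembl IDs beside 353 MSTRG IDs; coordinates are from that build, since the files hold none.

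The 17097 features that reached 1 TPM in 3 or more libraries were transformed to log2(TPM + 1) and fitted with limma 3.58.1 in R 4.3.3 (intensity trend, robust moderation, Benjamini-Hochberg over all tested features, threshold 0.05), a fit tested on simulated data. Members with a mean of at least 1 TPM (and Cacng6, tested at a lower mean) are given library by library, the others by their highest values, and partner lists by up to 3 genes of smallest p; Unc79 and Ckm were named after their values were seen, and the 0.5 log2 criterion and the counts by library were also chosen then. Counts, medians and sums cover all members, but values of 2 of them and 1 sequence are not reported here. The neuron score is the mean centred log2 value of 14 markers. Members and lists were chosen with earlier results of these data known. Alternatives covered pseudocount, filter, scaling, variance settings, features tested, a replicate block, the neuron score and each library left out.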

Additional observations from a re-analysis of the deposited data

How the results depend on the processing

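Over 18 alternatives no member passed, and the smallest adjusted p of any member was 0.667, with the replicate block. The count of features passing over all genes, 2 as reported, was 0 without a filter, 0 without the variance trend, 1 with median centring, 1 with haemoglobin and mitochondrial genes removed and 7 with the neuronal score, and 0 to 3 with any single library dropped (0 without wild type replicate 1 and without knockout replicate 1 or 3); the causes were not tested. The median log2 fold change of the members ran from 0.014 to 0.24 over these single-library omissions, the lowest without knockout replicate 1 and the highest without wild type replicate 2, and was -0.061 with the neuronal score. Same-numbered libraries correlated at 0.19, -0.05 and 0.24 in their deviations from group means. Knockout replicates 1 and 3 each correlated best with the wild-type library of the same number, and knockout replicate 2 with wild type replicate 3 (0.08). With so few libraries these values do not settle whether the numbers pair the samples, and the labels do not say. The main fit takes the libraries as unpaired. With the replicate block the count over all genes was 0. There 2 members, Scn9a and Cacng5, had an unadjusted limma p under 0.05. That is 7.14% of the tested members beside 7.31% of all tested features. Cacna1g fell under the same level without knockout replicate 1 (estimate -0.23), as did 1008 of 16807 tested features. Scn9a did so without wild type replicate 1, as did 542 of 16854 features. It also did so without wild type replicate 2, as did 1046 of 16825 features. Of 455 checks on single members 40 changed sign, 24 of them with a library left out, and 5 members never did: Cacng5, Cacng7, Cacna1g, Scn4b and Scn9a. Cacna2d1 was 0.0075 with median centring. With the neuronal score the estimates that changed sign were -0.17 for Cacna1b, 0.043 for Cacna2d1, 0.058 for Cacna2d2, -0.083 for Cacna2d3, -0.095 for Cacnb1, -0.11 for Cacnb3, -0.11 for Cacnb4, -0.065 for Cacng2, -0.025 for Cacng4, 0.23 for Cacng8, -0.16 for Scn1a, -0.20 for Scn2a, -0.45 for Scn2b, -0.31 for Scn3a and -0.0082 for Scn3b. Leaving out single libraries gave ranges that crossed 0 for Cacna1a (-0.020 to 0.52), Cacna1b (-0.045 to 0.53), Cacna1c (-0.021 to 0.31), Cacna1e (-0.25 to 0.059), Cacna1h (-0.10 to 0.14), Cacna2d1 (-0.066 to 0.023), Cacna2d2 (-0.22 to 0.0016), Cacnb1 (-0.023 to 0.20), Cacnb3 (-0.056 to 0.11), Cacng4 (-0.023 to 0.28), Cacng6 (-0.13 to 0.14), Cacng8 (-0.19 to 0.12), Scn2a (-0.041 to 0.49), Scn2b (-0.19 to 0.43), Scn3a (-0.16 to 0.34) and Scn8a (-0.14 to 0.089). Depth is unknown, so how far low levels limit the genes under 1 TPM cannot be given.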
